A study of Mus musculus with 4 samples.

Results

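RNA sequencing of mouse ID8 cells, an ovarian surface epithelial line that forms tumors in mice, was examined for 10 genes of the oxygen-sensing pathway, out of 22063 genes in the deposited table. They were taken by symbol: Hif1a and Epas1, which encode HIF-1α and HIF-2α; Egln1, Egln3 and Vhl, which mark the HIF-α proteins for destruction; and Bnip3, Ndrg1, Vegfa, P4ha1 and Ankrd37, which HIF induces. The cells carried a control shRNA in a lentiviral pLKO.1-puro vector (shCtrl, wild-type genotype in the labels) or an shRNA against USP9X (shUSP9X, USP9X knockdown), with 2 libraries in each group, and both groups were kept in DMEM with serum. The oxygen level during culture, any added TGF-β1 and which shRNA against USP9X was used are not given in the sources used here for these libraries. For shRNA sequences the paper refers to a supplementary table, whose content could not be read here. Total counts were 17232006 and 15611363 in the shCtrl libraries and 19978889 and 17021261 in the shUSP9X libraries. No source says that the libraries of a group came from separate infections or cultures, so the p-values measure the spread between these libraries, which may be technical.

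A hypoxia-inducible factor is a dimer of an oxygen-regulated α subunit and the stable partner ARNT. In oxygen, prolyl hydroxylases such as EGLN1 (PHD2) and EGLN3 (PHD3) modify the α subunits, and the VHL ubiquitin ligase then binds them and sends them to the proteasome. When oxygen is low the α subunits escape, bind DNA with ARNT and switch on genes for glycolysis, vessel growth, mitophagy and collagen processing. USP9X is a deubiquitinase, an enzyme that takes ubiquitin off other proteins, and the study asked whether it acts on HIF-2α. The present libraries measure transcripts and hold no information on the amount of any HIF protein.

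The targeted gene was low in both shUSP9X libraries. Usp9x had 298 and 282 CPM (a count as a share of its library, scaled by TMM factors) in shCtrl and 19.7 and 20.5 in shUSP9X, which was 6.94% of the shCtrl level (log2 fold change -3.85 ± 0.0585 SE, edgeR adjusted p = 4.66e-26). With the trends of fold change on GC content and length removed (an offset described below), its log2 fold change was -2.40. The 2 groups did not overlap and the libraries followed their labels. Here and below, a fold change is shUSP9X over shCtrl, its error is the standard error of the fit, n is 2 libraries per group, and a gene is called lower or higher at an edgeR adjusted p under 0.05 over 11448 genes tested.

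All 10 genes passed the filter on low counts. In shUSP9X 7 of them were lower, Vhl was higher, and Egln3 and Ankrd37 did not pass the test. Their median log2 fold change was -0.70, with single genes between -2.19 (Bnip3) and 0.24 (Vhl). The background was broad: 33.6% of all genes tested were lower and 33.8% were higher, with a median log2 fold change of -0.00. The cutoff in the study's methods is a p-value under 0.05 and a fold above 1.5. With the p-value read as unadjusted, 5 of the 10 were lower and 0 higher at this cutoff, against 18.7% and 10.8% of all genes. The CPM of the groups did not overlap for 9 of the 10 genes, which was also the case for 82.3% of all genes tested. Summed over the 10 genes, 1080 and 1064 CPM in shCtrl stood against 632 and 639 CPM in shUSP9X.

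Both HIF-α transcripts fell, and Epas1 fell further than Hif1a. Hif1a (12:73901375-73947530, plus strand, GRCm38) had 454 and 438 CPM in shCtrl and 231 and 238 CPM in shUSP9X. The shUSP9X libraries were thus both lower, at 52.6% of the shCtrl level (log2 fold change -0.93 ± 0.0382, edgeR adjusted p = 2.22e-17), and with the offset the log2 fold change was smaller, -0.37. Epas1 (17:86753700-86833410, plus strand) was a scarce transcript, with counts of 416 and 407 in shCtrl and 152 and 145 in shUSP9X. Scaled, these were 24.0 and 25.7 CPM against 7.69 and 8.61 CPM, a fall to 32.7% (log2 fold change -1.61 ± 0.122, edgeR adjusted p = 7.26e-12), and the value was -1.79 with the offset. Without the offset, the 95% intervals of the log2 fold changes, -1.005 to -0.847 for Hif1a and -1.86 to -1.36 for Epas1, did not overlap, though the difference itself was not tested. In bulk RNA, fewer cells with a transcript and less of it per cell cannot be told apart.

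Hif1a stayed the more abundant subunit transcript in each library. Per length, Hif1a had 98.8 and 95.8 FPKM in shCtrl and 49.6 and 50.9 FPKM in shUSP9X, while Epas1 had 4.38 and 4.73 FPKM in shCtrl and 1.38 and 1.54 FPKM in shUSP9X. The FPKM ratio of Hif1a to Epas1 was 22.6 and 20.3 in the shCtrl libraries and 35.9 and 32.96 in the shUSP9X libraries. Both ratios in shUSP9X lay above both in shCtrl. With 2 libraries against 2, an exact two-sided permutation test cannot give a p below 0.333, so the ratios are given without one. Arnt, the shared partner, did not pass the test (log2 fold change -0.01 ± 0.0629, edgeR adjusted p = 0.923), with 61.8 and 67.2 CPM in shCtrl and 65.4 and 62.7 CPM in shUSP9X.

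**Figure D1:**
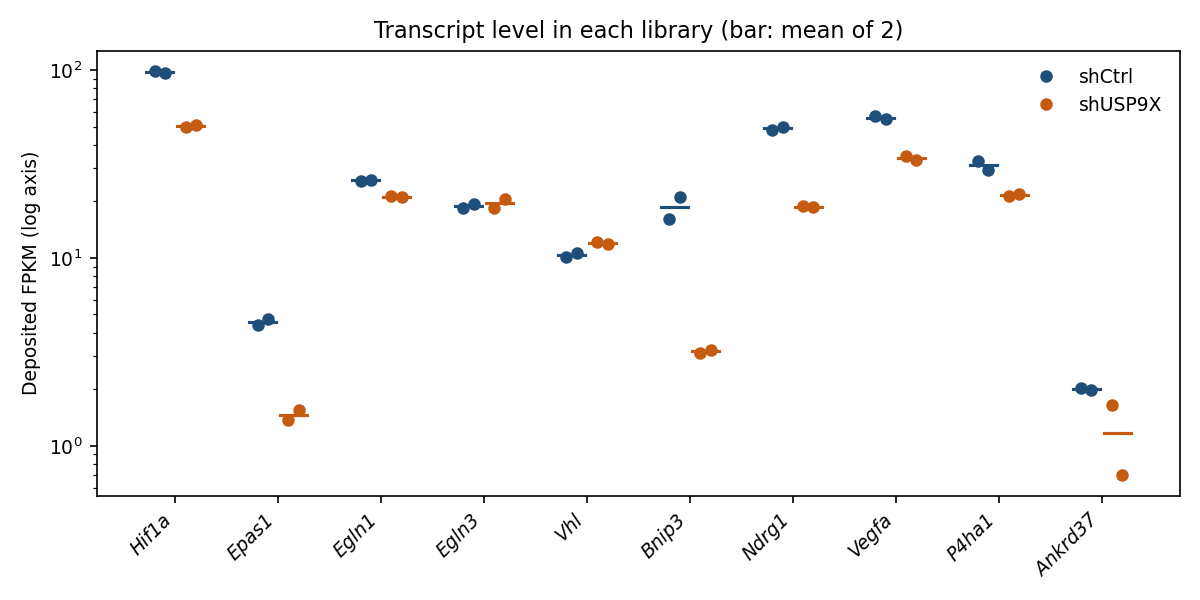
Deposited FPKM (log axis) of the 10 genes in each library; blue points are the 2 shCtrl libraries, orange points the 2 shUSP9X libraries, and the short bars their means. Hif1a was the highest in both groups, and the groups stand apart for Hif1a, Epas1, Bnip3, Ndrg1, Vegfa and P4ha1 but overlap for Egln3.

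**Figure D2:**
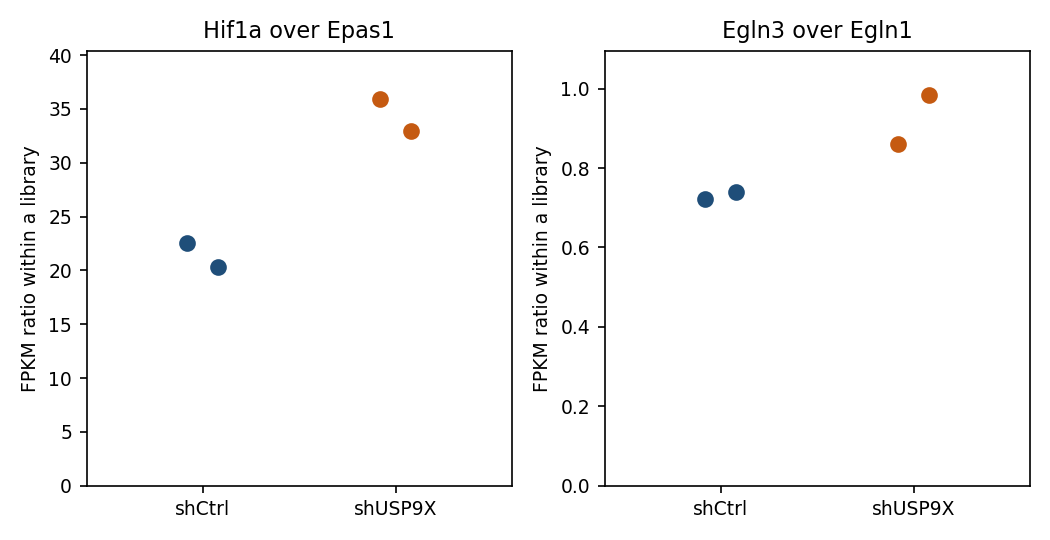
FPKM ratio of Hif1a to Epas1 and of Egln3 to Egln1 within each library; each point is 1 library (blue shCtrl, orange shUSP9X). Both ratios were higher in each shUSP9X library than in each shCtrl library.

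Of the genes that oppose HIF, Egln1 was lower, Vhl was called higher and Egln3 did not pass the test. Egln1, the main oxygen sensor of the pathway (8:124908587-124949324, minus strand), had 91.5 and 92.6 CPM in shCtrl and 77.4 and 76.4 CPM in shUSP9X. It was lower in both shUSP9X libraries, at 83.5% of shCtrl (log2 fold change -0.26 ± 0.0539, edgeR adjusted p = 1.40e-04), and with the offset the log2 fold change was -0.54. Egln3, a hydroxylase that is itself a HIF target (12:54178981-54203860, minus strand), had 49.0 and 50.8 CPM in shCtrl and 49.4 and 55.6 CPM in shUSP9X. These values overlapped, and the log2 fold change was 0.07 ± 0.0713 with a 95% interval of -0.08 to 0.22 (edgeR adjusted p = 0.390). The FPKM ratio of Egln3 to Egln1 was 0.723 and 0.741 in shCtrl and 0.862 and 0.983 in shUSP9X.

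Vhl, the substrate receptor of the ligase (6:113623959-113631633, plus strand), had 28.1 and 29.3 CPM in shCtrl and 34.3 and 33.3 CPM in shUSP9X. Both shUSP9X libraries were higher, at 118% of shCtrl (log2 fold change 0.24 ± 0.0863, edgeR adjusted p = 0.0184). The call did not hold in every fit: the edgeR adjusted p was 0.0589 without shCtrl replicate 1 and 0.108 without shUSP9X replicate 1. Once the trend of fold change on GC content and length was removed, the value was -0.03 for Vhl (edgeR adjusted p = 0.788) and -0.20 for Egln3 (edgeR adjusted p = 0.0187). Over all alternatives, the log2 fold change lay between -0.0269 and 0.271 for Vhl and between -0.196 and 0.161 for Egln3, so neither kept 1 sign.

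HIF dimers bind a short core, ACGTG or GCGTG, in the DNA near the genes they induce. RefSeq promoter windows (GRCm38.p6, 250 bases before to 50 after a start) matched 8 of the 10 genes, all but Epas1 and Ndrg1, and Vegfa had 2 windows. On either strand, 7 of these 9 windows (77.8%) held at least 1 of the cores, as did 43.8% of all 32851 windows. ACGTG was in 7 of the 9 (77.8%, against 19.6% of all) and GCGTG in 5 (55.6%, against 32.4%). The share with either core was 70.8% in windows of the other HIF targets outside glycolysis, 79.3% in those of glycolytic targets and 68.4% in those of other HIF machinery. The windows of the 10 genes were also richer in GC, with a median of 69.0% against 52.7%. The stretches before the start that no annotated exon covers are shown for 4 genes that fell, Hif1a, Bnip3, Vegfa and P4ha1, and for Egln3, which did not pass the test. They run in the direction of the gene, with each core on either strand in capitals (overlapping matches run together, as in CACGTG, which reads ACGTG on both strands).
Hif1a: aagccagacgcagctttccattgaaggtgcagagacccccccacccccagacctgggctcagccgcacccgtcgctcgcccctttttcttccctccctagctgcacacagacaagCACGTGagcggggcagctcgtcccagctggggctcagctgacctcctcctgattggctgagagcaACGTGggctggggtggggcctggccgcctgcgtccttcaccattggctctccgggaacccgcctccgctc
Bnip3: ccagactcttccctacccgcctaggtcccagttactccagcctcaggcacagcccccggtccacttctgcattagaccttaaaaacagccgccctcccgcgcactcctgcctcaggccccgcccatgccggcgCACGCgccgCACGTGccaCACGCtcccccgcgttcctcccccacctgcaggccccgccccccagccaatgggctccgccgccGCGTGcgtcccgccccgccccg
Vegfa: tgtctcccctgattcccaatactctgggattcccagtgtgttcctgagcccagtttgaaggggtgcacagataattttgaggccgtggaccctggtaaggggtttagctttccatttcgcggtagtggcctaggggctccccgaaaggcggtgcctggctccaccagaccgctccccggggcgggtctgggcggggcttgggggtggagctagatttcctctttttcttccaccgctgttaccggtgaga
P4ha1: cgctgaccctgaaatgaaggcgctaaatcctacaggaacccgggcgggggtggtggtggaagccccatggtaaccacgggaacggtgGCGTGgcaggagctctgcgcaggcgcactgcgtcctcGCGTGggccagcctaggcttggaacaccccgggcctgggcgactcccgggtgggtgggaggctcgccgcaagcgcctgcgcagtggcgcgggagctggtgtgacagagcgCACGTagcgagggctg
Egln3: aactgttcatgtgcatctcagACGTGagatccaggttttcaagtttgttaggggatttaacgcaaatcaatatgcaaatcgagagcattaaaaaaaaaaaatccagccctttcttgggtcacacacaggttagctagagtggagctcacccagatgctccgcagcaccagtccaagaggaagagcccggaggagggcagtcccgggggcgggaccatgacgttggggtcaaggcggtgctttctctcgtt
Hif1a (chr12:73907617-73907866, plus strand) held 3 matches, 2 of them the palindrome read on each strand. Bnip3 (chr7:138909520-138909756, minus strand) held 5 matches, the most among these windows. P4ha1 (chr10:59323046-59323295, plus strand) held 3 and Egln3 (chr12:54203875-54204124, minus strand) 1, while Vegfa (chr17:46032378-46032627, minus strand) held 0 in this window. The second Vegfa window, which overlaps exons over most of its length, held 2. The matches are letters in a window and were not tested as binding sites.

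Of the 5 HIF targets, 4 were lower in shUSP9X, against 33.6% of all genes tested. Bnip3, a mitochondrial receptor for mitophagy (7:138890836-138909519, minus strand), fell the furthest, from 24.9 and 26.1 CPM in shCtrl to 5.57 and 5.58 CPM in shUSP9X. Both shUSP9X libraries were at about the same level, 21.9% of shCtrl (log2 fold change -2.19 ± 0.129, edgeR adjusted p = 3.70e-14), and 2.59% of all genes tested had a lower value. Ndrg1, a stress-induced gene linked to differentiation (15:66929318-66969640, minus strand), had 138 and 141 CPM in shCtrl and 54.1 and 50.7 CPM in shUSP9X. Its level was 37.6% of shCtrl, with no overlap (log2 fold change -1.41 ± 0.0546, edgeR adjusted p = 5.21e-18).

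Vegfa, the vascular growth factor (17:46016993-46032369, minus strand), had 166 and 168 CPM in shCtrl and 104 and 102 CPM in shUSP9X. This was 61.7% of shCtrl, again without overlap (log2 fold change -0.70 ± 0.0471, edgeR adjusted p = 7.23e-13). P4ha1, the catalytic subunit of collagen prolyl hydroxylase (10:59323296-59373304, plus strand), had 103 and 90.9 CPM in shCtrl and 66.7 and 68.4 CPM in shUSP9X. It was lower in both shUSP9X libraries, at 69.7% of shCtrl (log2 fold change -0.52 ± 0.0604, edgeR adjusted p = 2.52e-08). Ankrd37, an ankyrin repeat protein (8:45996902-46005707, minus strand), was near the limit of these libraries, with counts of 32 and 28 in shCtrl and 30 and 11 in shUSP9X. At 1.85 and 1.77 CPM against 1.52 and 0.653 CPM its groups did not overlap, yet the test was not passed (log2 fold change -0.70 ± 0.408, edgeR adjusted p = 0.131). It was -0.24 without shUSP9X replicate 2 and -1.46 without shUSP9X replicate 1, so its size depended on which shUSP9X library was kept.

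**Figure D3:**
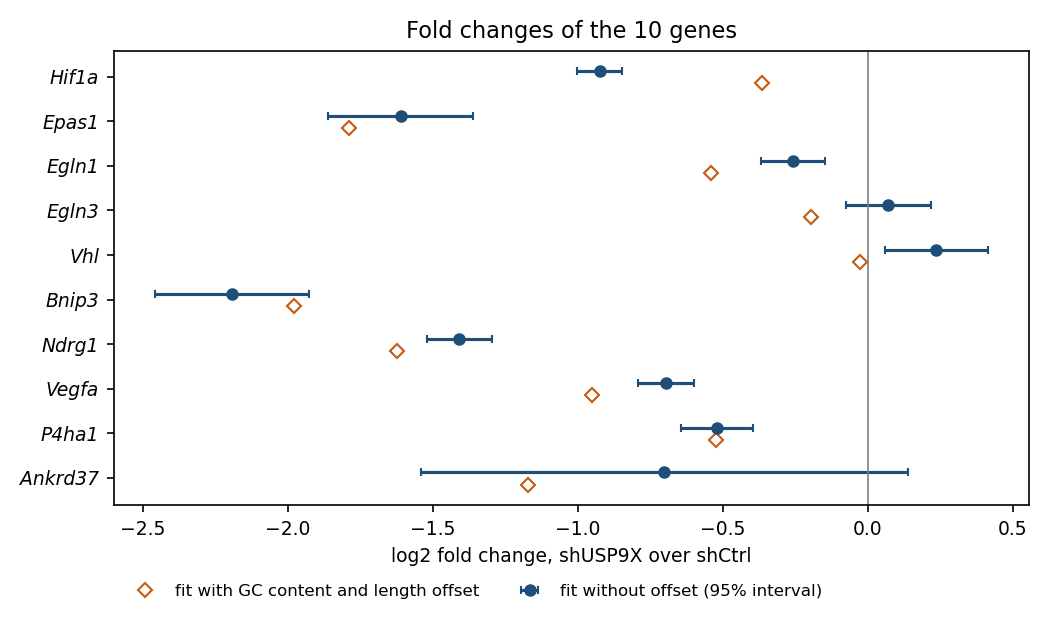
log2 fold change (shUSP9X over shCtrl) of the 10 genes; filled points and bars are the edgeR estimate with its 95% interval, open diamonds the estimate from the fit with the GC content and length offset. Bnip3, Epas1 and Ndrg1 lie farthest left at -2.19, -1.61 and -1.41, while Egln3 and Vhl are the genes whose 2 estimates lie on opposite sides of 0.

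Ranked by FPKM, the order in shCtrl was Hif1a (97.3 ± 2.06, mean ± SD, n = 2), Vegfa (55.8 ± 1.55), Ndrg1 (48.9 ± 0.919), P4ha1 (31.0 ± 2.52), Egln1 (25.9 ± 0.331), Egln3 (18.9 ± 0.561), Bnip3 (18.6 ± 3.43), Vhl (10.4 ± 0.370), Epas1 (4.55 ± 0.247) and Ankrd37 (2.01 ± 0.0325). Egln3 and Bnip3 were the neighbours whose values overlapped. In shUSP9X Hif1a (50.2 ± 0.936) and Vegfa (34.02 ± 1.12) kept the first places, and Bnip3 (3.18 ± 0.0672) and Ndrg1 (18.8 ± 0.316) dropped below Vhl (11.97 ± 0.235) and Egln3 (19.5 ± 1.65), respectively. There, Egln3 overlapped with Ndrg1 and Epas1 (1.46 ± 0.117) with Ankrd37 (1.17 ± 0.674). The length by which the deposited values scale a count was nearly constant for Epas1, Egln1, Egln3 and Vhl. For Bnip3 it was 1551 and 1259 bases in shCtrl and 1756 and 1710 bases in shUSP9X, so its FPKM also follows the transcripts assigned to it, and fold changes were taken from counts.

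Across all genes, the fold changes followed GC content (Spearman's rho = 0.429 across 11430 genes, which are not independent replicates). In the tenth that is poorest in GC the median was -0.80, and in the tenth that is richest it was 0.19. With that trend and the one on length removed in each library, 9 of the 10 genes were lower and 0 higher, against 36.4% and 27.8% of all genes. In that fit the median of the 10 was -0.75 and the median of all genes -0.07. All 7 genes called lower without the offset were called lower with it. Hif1a, with a GC content of 41.3%, had an adjusted p between 7.52e-116 (by edgeR) and 1.14e-05 (by limma) over the alternatives. With the offset its value of -0.37 kept its direction (edgeR adjusted p = 4.09e-09). Bnip3, of similar GC content (41.6%), was at -1.98, and Epas1 (52.5%) at -1.79. Egln1 was the richest of the 10 in GC (56.0%). Ankrd37 moved to -1.17 (edgeR adjusted p = 0.0149, between 0.0141 and 0.714 under other settings).

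**Figure D4:**
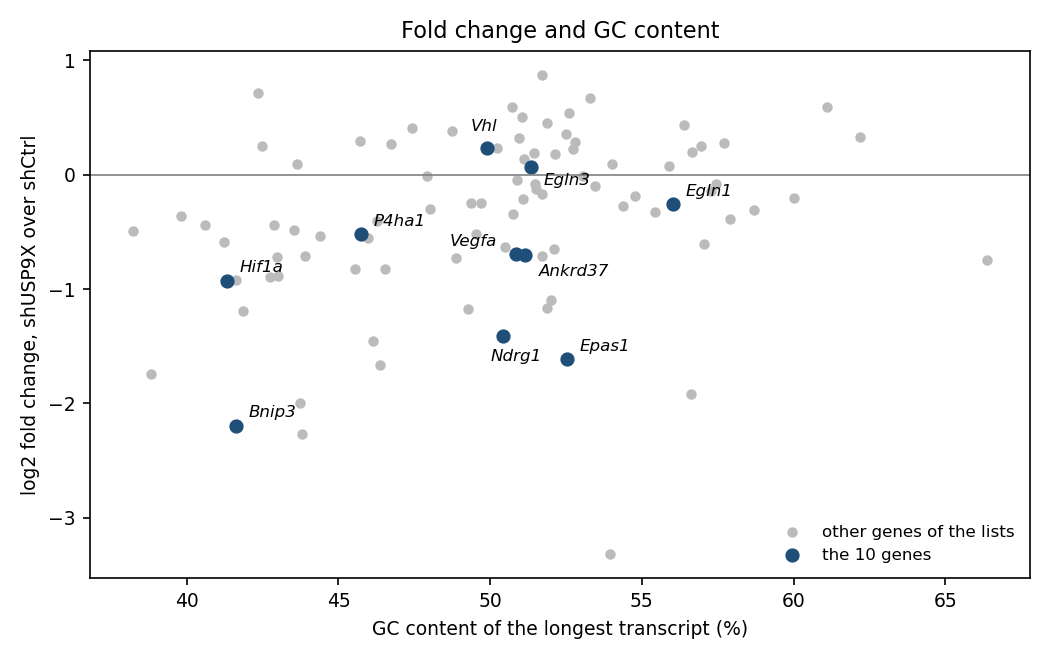
log2 fold change (shUSP9X over shCtrl, without the offset) against the GC content in percent of the longest transcript; blue points are the 10 genes, grey points the other tested genes of the pathway lists. Hif1a and Bnip3 share a low GC content near 41% but differ in fold change, and Epas1 and Ndrg1 lie low at 52.5% and 50.4%.

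Other parts of the HIF machinery did not move one way. Of 23 genes listed, 21 were tested, and 9 (42.9%) were lower and 8 (38.1%) higher, near the 33.6% and 33.8% of all genes. Their log2 fold changes had a median of -0.01. The lowest were Hsp90aa1, a chaperone of HIF-α (-1.99 ± 0.0345), Arnt2, a relative of Arnt (-1.09 ± 0.327), and Cited4, which competes for the coactivators (-0.74 ± 0.318). The Arnt2 and Cited4 values rested on shCtrl replicate 2: without it they were -0.71 (edgeR adjusted p = 0.149) and -0.12 (edgeR adjusted p = 0.793). The highest were Elob, a subunit of the VHL ligase (0.59 ± 0.0540), Hsp90ab1, the constitutive HSP90 (0.50 ± 0.0260), and Rack1, which competes with HSP90 for HIF-1α (0.39 ± 0.0296). With the offset Elob was at 0.36 and Hsp90ab1 at 0.23. Among genes named after their values were seen, Egln2, the third hydroxylase (0.33 ± 0.0623), and Hif1an, the asparaginyl hydroxylase FIH (0.19 ± 0.0576), were also higher. With the offset neither passed the test, at 0.04 and 0.08. With the offset 4 of the 21 were called in the opposite direction (Crebbp, Eloc, Ep300 and Os9), and Hif3a had 0 counts in every library.

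HIF targets outside glycolysis were mostly lower. Of 50 listed genes other than those above, 42 were tested, of which 30 (71.4%) were lower and 8 (19.0%) higher, against 33.6% and 33.8% of all genes. Their median log2 fold change was -0.44. With the offset 31 were lower and 8 higher, against 36.4% and 27.8% of all genes, and the median was -0.47. Among those with enough counts the lowest were Vldlr, a lipoprotein receptor (-2.27 ± 0.156), Trp53inp1, an autophagy and stress gene (-1.74 ± 0.0629), and Edn1, the vasoconstrictor endothelin-1 (-1.46 ± 0.164). Among the highest were Gbe1, the glycogen branching enzyme (0.71 ± 0.108), and Hmox1, heme oxygenase-1 (0.67 ± 0.0695). With the offset Vldlr was at -1.61, Trp53inp1 at -0.79 and Hmox1 at 0.25. In both fits 27 genes were lower and 5 higher, and 3 that were lower without the offset were higher with it (Egfr, Rsbn1 and Tfrc).

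With TMM scaling and all libraries, glycolytic HIF targets split evenly without the offset, and they were more often lower than higher with it. All 20 were tested, and 9 were lower and 9 higher, against 33.6% and 33.8% of all genes, and their median log2 fold change was 0.01. Slc16a3, the lactate exporter MCT4, was the lowest (-1.91 ± 0.143), followed by Pdk1, a pyruvate dehydrogenase kinase (-1.66 ± 0.0634), and Aldoc, an aldolase (-1.17 ± 0.131). Gapdh (0.54 ± 0.0283) and the hexokinases Hk2 (0.45 ± 0.0468) and Hk1 (0.43 ± 0.0447) were the highest, and with the offset they were at 0.25, 0.29 and 0.22. With the offset 13 were lower and 5 higher (median -0.18), against 36.4% and 27.8% of all genes, and Aldoa, Gpi1, Pgam1 and Pkm went from higher to lower while Pfkp went the other way.

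**Figure D5:**
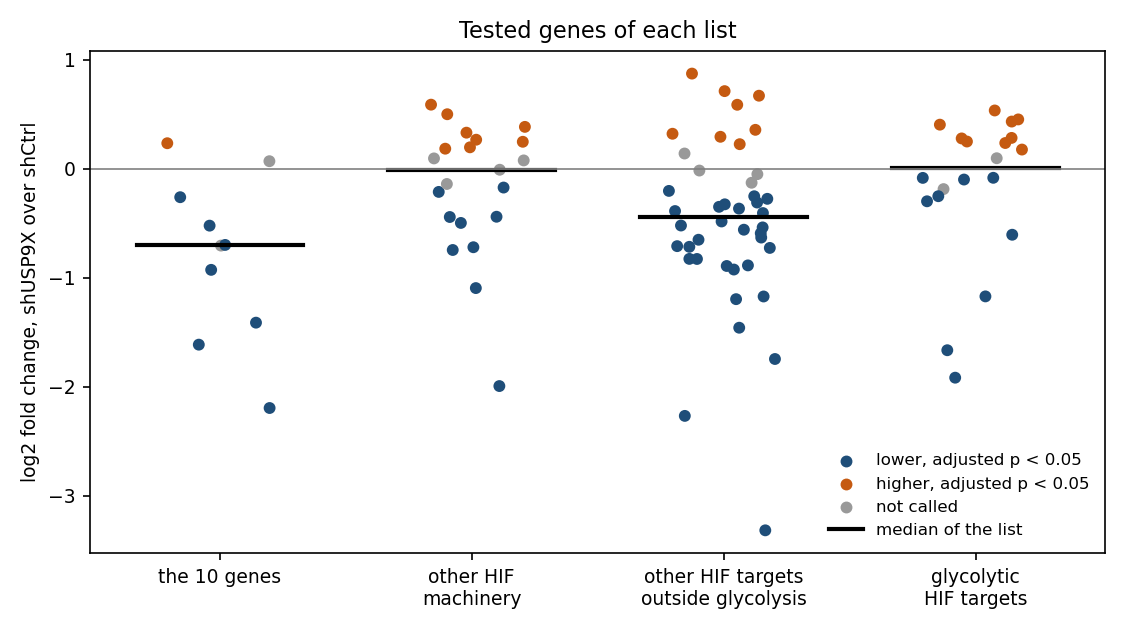
log2 fold change (shUSP9X over shCtrl) of each tested gene of the 4 lists; blue is lower and orange higher at an edgeR adjusted p under 0.05, grey is not called, and the black bar is the median of the list. The medians are -0.70 for the 10 genes, -0.01 for other HIF machinery, -0.44 for other targets and 0.01 for glycolytic targets.

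Epas1 had its closest match in Pdk1. Over the 4 libraries, with each gene's log2 CPM centred on its mean, the root mean square distance from Epas1 was 0.0780 for Pdk1, 0.128 for Trp53inp1 and 0.132 for Ndrg1, the nearest of 93 genes compared. This likeness largely restates the size of the difference between the groups, since each pattern has 4 points in 2 groups.

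The study measured a panel of HIF target transcripts under low oxygen by qRT-PCR, sorted by the subunit that drives them, and the same genes were read here. In that panel, the paper reports, the genes reduced by USP9X loss were more often HIF-2α targets, besides a few common ones. The oxygen level of the present libraries is not given, so the 2 settings may differ. Among the HIF-1α targets, Bnip3 fell as above, Pgk1, a glycolytic kinase, had 1958 and 1948 CPM in shCtrl and 1656 and 1628 in shUSP9X (-0.25 ± 0.0287), and Ldha, lactate dehydrogenase A, was lower by a small margin (-0.08 ± 0.0285, edgeR adjusted p = 0.0138, between 1.42e-18 and 0.324 under other settings). Car9, a carbonic anhydrase often used as a hypoxia marker, had counts of 10 and 8 in shCtrl and 3 and 2 in shUSP9X and was below the filter. None of the HIF-2α targets tested was lower, against 33.6% of all genes. Ccnd1, cyclin D1 (0.32 ± 0.0316), and Cited2, a feedback inhibitor of HIF (0.59 ± 0.0648), were higher, as were 33.8% of all genes. Tgfa, an EGFR ligand, did not pass the test (-0.05 ± 0.0683, edgeR adjusted p = 0.548). With the offset Pgk1 was at -0.60, Ldha at -0.45, Ccnd1 at 0.08 and Cited2 at 0.25, and Tgfa was at -0.25 and called lower (edgeR adjusted p = 0.00228, between 0.00163 and 0.951 under other settings). Of the common targets, Vegfa and Ndrg1 were lower, and Slc2a1, the glucose transporter GLUT1, had 114 and 116 CPM in shCtrl and 125 and 122 CPM in shUSP9X (0.10 ± 0.0482, edgeR adjusted p = 0.0754). The value for Slc2a1 was -0.20 with the offset (edgeR adjusted p = 4.17e-04, between 2.64e-04 and 0.463 under other settings). Epo and Pou5f1 had 0 counts in every library, and Adm had 4 in shCtrl replicate 2 and 0 in the others.

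Most markers of the labelled cell type were present, some of them at low counts. Of 12 genes of ovarian surface epithelium and mesothelium, 11 were above a floor of 3 counts in some library, led by Krt19. The 12 genes summed to 2568 and 2599 CPM in shCtrl and 3020 and 2971 CPM in shUSP9X. Epithelial markers near or below the floor were Epcam, with counts of 4 and 6 in shCtrl and 1 and 6 in shUSP9X, and Krt7 (0 and 0 against 2 and 3). Cdh1 was low too, with counts of 57 and 26 in shCtrl and 52 and 53 in shUSP9X. Of 10 tested 4 were higher (Krt8, Krt18, Krt19 and Upk1b) and 4 lower, near the 33.8% and 33.6% of all genes. The lower ones were Msln (-0.47), Wt1 (-0.52), Lrrn4 (-1.64) and Muc16, which had counts of 33 and 43 in shCtrl and 1 and 0 in shUSP9X. With the offset 6 were lower and 3 higher (36.4% and 27.8% of all genes), and Krt19 turned from 0.12 to -0.29. Msln and Wt1 were then at -0.84 and -0.82, and Krt8 and Krt18 at 0.53 and 0.21. Endothelial cells, where HIF-2α is abundant, were represented by 12 markers, of which Cdh5, Cldn5, Emcn, Erg and Kdr had 0 counts in every library. The 12 summed to 20.7 and 25.0 CPM in shCtrl and 34.9 and 33.5 CPM in shUSP9X. Esam was higher, with 9.51 and 12.9 CPM in shCtrl and 27.7 and 25.9 CPM in shUSP9X, and Tek was lower, with 9.92 and 10.4 CPM against 5.51 and 6.23 CPM. Leukocyte markers differed between the groups: the 13 genes summed to 4.27 and 4.36 CPM in shCtrl and 15.5 and 15.6 CPM in shUSP9X, led by Cd68. Ptprc had counts of 0 and 0 in shCtrl against 29 and 18 in shUSP9X, Itgam 0 and 0 against 72 and 75, and Adgre1 0 and 0 against 58 and 59, while C1qa, C1qb and Cd3e were at 0 in every library. Their part in the results above was not tested.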

How the data were processed

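Total RNA was isolated and sequenced on an Illumina NovaSeq instrument. Per the study's methods, reads were mapped to GRCm38 and analysed with StringTie 1.3.1 and DESeq2, with cutoffs of 0.05 on the p-value and 1.5 on the fold. The submitters' processing notes also name fastp 0.18.0, Bowtie2 2.2.8, HISAT2 and RSEM. The annotation release is not given in the sources used here. For each gene the authors deposited estimated counts by library, not normalized, and FPKM values, which are scaled for transcript length and library size; between 6.40 and 6.69% of the counts are not whole. The design had been written for whole counts, so estimated counts were rounded.

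Libraries were grouped by the condition in their labels. Genes that passed filterByExpr (11448 of 22063, with 7085 at a count of 0 in every library) were normalized by TMM and tested with edgeR 4.0.16 (glmQLFit and glmQLFTest, R 4.3.3), with Benjamini-Hochberg adjustment over all of them. The biological coefficient of variation was 0.0352, and replicates differed by more than sampling noise (chi-square per gene 3.36 in shCtrl and 2.09 in shUSP9X). Molecular identifiers are not described, so the floor of 3 counts covers counting error only. GC content, length and coordinates came from the longest transcript in GENCODE M21, and were known for 99.8% of the genes tested. The library kit does not mark strand, and other genes share 8.11% of the exon bases of Hif1a, 22.3% of Bnip3, 8.43% of Ndrg1 and 26.4% of Ankrd37, so their counts are less certain.

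Alternatives were DESeq2 1.42.0, DESeq2 size factors, upper quartile and library size scaling, weaker and stricter filters (1 count in some library, 10 counts in every library), limma-trend (limma 3.58.1) on FPKM (mean of 1 or more) in log2 with a pseudocount of 1 or 0.1, a replicate block, an offset that takes a loess trend on GC content and length (span 0.3) out of every library, both of these together, and leaving out 1 library at a time, where the lone library is assumed to vary like the other group. Ranges of adjusted p under other settings cover all of these fits, by edgeR, DESeq2 or limma, with either sign of the fold change. The test was checked on simulated counts made from these libraries. It called few unchanged genes where no trend was added, but most of them where a trend on GC content and length was added and no offset used. With the offset it called few again. The added trend was smooth, with a strength not fitted to these libraries, and used the same covariates as the offset. Its removal was thus built in and does not show how well the offset works on these libraries.

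The 10 genes and the lists were chosen with earlier results of these data known, so list counts are descriptions. Besides the 10 genes, Usp9x and the genes of the qRT-PCR panel, the text names the 3 lowest and 3 highest of each list among genes called by edgeR whose mean log2 CPM reached 1 and whose groups did not overlap; other genes were chosen after their values were seen. A gene that this rule names is not reported here.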

Additional observations from a re-analysis of the deposited data

How the results depend on the processing

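Of 150 values of the 10 genes under 15 alternatives each, 138 kept their direction and side of the threshold, 5 lost the call, 2 gained it and 5 reversed. The number lower stayed at 7 under each alternative without the offset and was 9 under both fits with it. The number higher, 1 (Vhl), was 0 under the offset, under the block with the offset, under DESeq2 (adjusted p = 0.0854 by DESeq2), under both limma fits on FPKM, without shCtrl replicate 1 and without shUSP9X replicate 1, so leaving out a library gave 0 to 1. Other HIF machinery had 5 higher genes rather than 8 under both limma fits on FPKM, and glycolytic targets 5 rather than 9 under both fits with the offset. Under upper quartile scaling the glycolytic targets had 6 lower and 10 higher genes, rather than 9 and 9. Under the offset and under the block with the offset, the log2 fold change reversed to -0.20 for Egln3, -0.0269 (-0.0268 with the block) for Vhl and -0.20 for Slc2a1. Leaving out 1 library at a time, Egln3, which was not called, lay between -0.00596 (without shUSP9X replicate 2) and 0.161, and Tgfa, not called either, between -0.11 and 0.0282, above 0 without shCtrl replicate 2 and at 0.00772 without shUSP9X replicate 2. For the other named genes, 353 of 373 values kept direction and call, and Cited4 lost its call under 8 alternatives. The cause of these changes was not tested, except that the offset by its construction takes out any group difference that follows GC content or length.

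Replicate numbers did not pair the libraries (correlation of the deviations of same-numbered libraries -0.0453). With the replicate block 7 of the 10 genes were lower and 1 higher, as without it, over 3810 lower and 3855 higher genes in all. The median log2 fold change over all genes was -0.00, and lay between -0.03 (library size only) and 0.03 (upper quartile) under the other scalings. It was -0.07 with the offset and -0.07 with the block and the offset. Depth limits Ankrd37, and Car9 could not be tested.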

Other observations

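Some collagen-modifying enzymes among the HIF targets are given here, chosen after their values were seen. P4ha2, the second catalytic subunit of collagen prolyl hydroxylase, had 65.8 and 59.8 CPM in shCtrl and 41.3 and 38.8 CPM in shUSP9X (log2 fold change -0.65 ± 0.0709, edgeR adjusted p = 8.18e-09). Plod2, a lysyl hydroxylase, had 182 and 181 CPM against 98.5 and 98.4 CPM (-0.89 ± 0.0466, edgeR adjusted p = 3.95e-15). The crosslinking enzymes Lox (-0.71 ± 0.0384) and Loxl2 (-0.71 ± 0.0385) were also lower, and Plod1 was higher (0.23 ± 0.0804, edgeR adjusted p = 0.0152) but at -0.03 with the GC content and length offset. P4ha2, Plod2, Lox and Loxl2 kept their direction with the offset, at -0.92, -0.72, -0.46 and -0.88.

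Bnip3l, the relative of Bnip3 in mitophagy, was lower as well (131 and 126 CPM in shCtrl, 55.5 and 56.8 CPM in shUSP9X, log2 fold change -1.19 ± 0.0543). The count ratio of Bnip3l to Bnip3 was 5.26 and 4.82 in the shCtrl libraries and 9.98 and 10.2 in the shUSP9X libraries. Usp33, a deubiquitinase, fell from 108 and 105 CPM in shCtrl to 60.6 and 69.0 CPM in shUSP9X (-0.72 ± 0.0600, and -0.46 with the offset). Usp20, its close relative, did not pass the test (0.08 ± 0.113, edgeR adjusted p = 0.556). Nos2, inducible nitric oxide synthase, had the lowest log2 fold change among the tested HIF targets, -3.32 ± 0.484, at 2.25 and 2.78 CPM in shCtrl and 0.253 and 0.237 CPM in shUSP9X.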
